A study of Mus musculus with 24 samples.

Results

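The genes described here are 34 genes of mitosis, a list of genes of the G2 and M phases and of the spindle, matched by symbol to the 34111 genes of the count table. All 34 were found, and all 34 had counts high enough to be tested in every comparison. Their levels were measured in CD4 and CD8 T lymphocytes isolated from the spleens of C57BL/6N mice, by sequencing of tags from the 3′ ends of polyadenylated RNA. The design crossed co-receptor (CD4 or CD8), Atm genotype and B-cell lymphoma, with 3 libraries in each of 8 groups, 24 libraries in all. WT controls were Atmwt/wt mice with no transplant, and WT lymphoma mice were Atmwt/wt mice transplanted with B-cell lymphoma. KO controls were Atm-/- mice with no transplant, and KO lymphoma mice were Atm-/- mice that had received the lymphoma. Atm encodes a kinase that signals DNA double-strand breaks. The construction of the Atm allele, the genotype and identity of the transplanted lymphoma, the age of the mice and the time since transplantation are not given in the sources used here.

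Each library came from a pool of 1 to 3 mice, 12 pools and 22 mice in all, and every pool gave 1 CD4 and 1 CD8 library with the same replicate number. The WT lymphoma libraries came from 1 mouse each. The p-values therefore measure the spread between pools, and between single mice in the WT lymphoma group. Mouse identifiers begin with S or B, and the meaning of the letters is not given. KO control replicates 2 and 3 and WT control replicate 3 were pools of B identifiers, KO lymphoma replicate 1 held an S and a B mouse, and all other pools were S only.

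Mitosis genes form a well known co-regulated programme. Their products condense and disentangle chromosomes, build the spindle, attach kinetochores to microtubules, hold anaphase until all chromosomes are attached, and part the daughter cells. Most are transcribed from late S phase to mitosis and are destroyed or silenced on return to G1, so resting T lymphocytes hold little of their RNA, and dividing cells of any lineage hold much more. Silencing in resting cells runs through the DREAM complex, and activation through MYBL2 and FOXM1. Both act at a promoter element called the cell cycle homology region, often beside CCAAT boxes bound by NF-Y.

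Promoter sequence was available in the RefSeq table (build GRCm38.p6) for 30 of the 34 members, as windows of 250 bases before and 50 after the start of the transcript. Ccna2, Aurkb, Tpx2 and Kif20a were without an entry. The cell cycle homology region was searched as TTTGAA and as TTTAAA, the NF-Y box as CCAAT and an E2F site as GCGGGAA, each on both strands. TTTAAA reads the same on both strands. TTTGAA or TTTAAA occurred in the windows of 26 of the 30 members (86.7%), against 30.6% of the 27025 genes in the table. TTTGAA alone was found in 23 members (76.7%, against 20.2% of all genes) and TTTAAA in 9 (30%, against 14.9%). CCAAT was present in 23 members (76.7%, against 41.1%), and 17 members (56.7%) held at least 2 CCAAT boxes, against 13.3% of all genes. Both elements together occurred in 22 members (73.3%), against 12.2% of all genes. GCGGGAA occurred in no member window and in 5.29% of all genes. A match shows only that these letters are present and not that a factor binds there.

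**Figure D1:**
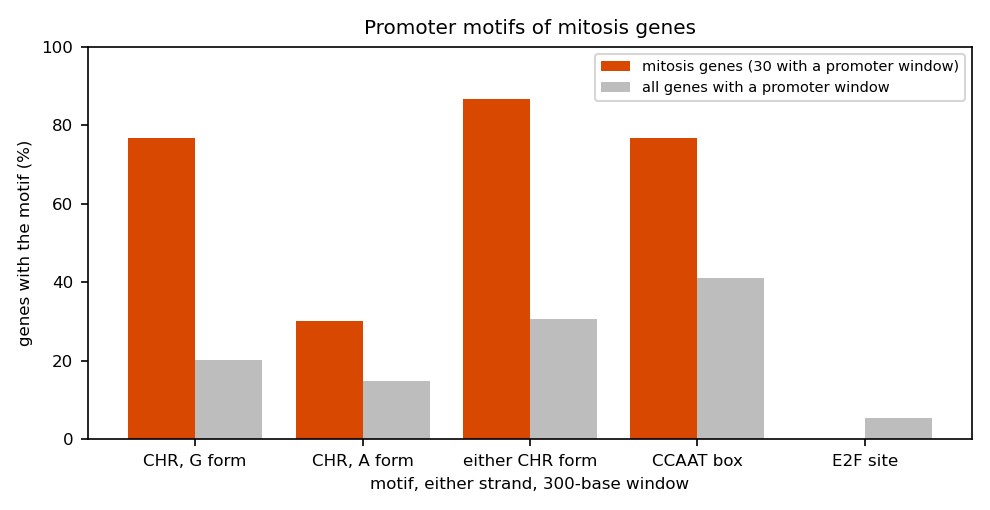
Share of genes (vertical axis, percent) whose 300-base promoter window holds each motif on either strand (horizontal axis), for the 30 mitosis genes with a window (orange) and for all 27025 genes with a window (grey). Either form of the cell cycle homology region (CHR) stood in 86.7% of the mitosis genes and in 30.6% of all genes.

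The 150 bases before the start are shown for the most highly expressed member of 6 role classes, since they show how the elements lie relative to each other and how members differ. Members with another annotated transcript start inside these bases were passed over. Capitals mark 3 of these motifs, the cell cycle homology region in both forms and the NF-Y box, on either strand. A minus-strand match is thus shown as its reverse complement. Each line runs 5′ to 3′ in the direction of the gene and ends at the base before the start.
Top2a: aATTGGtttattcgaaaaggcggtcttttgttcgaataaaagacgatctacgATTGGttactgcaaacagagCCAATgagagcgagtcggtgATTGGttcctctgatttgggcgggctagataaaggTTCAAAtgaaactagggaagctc
Plk1: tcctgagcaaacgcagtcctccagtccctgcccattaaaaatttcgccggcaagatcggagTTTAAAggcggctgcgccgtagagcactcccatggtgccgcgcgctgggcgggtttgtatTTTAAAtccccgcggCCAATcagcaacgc
Birc5: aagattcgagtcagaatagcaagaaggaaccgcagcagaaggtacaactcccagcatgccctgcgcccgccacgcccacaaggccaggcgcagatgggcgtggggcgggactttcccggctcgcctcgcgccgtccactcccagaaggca
Ttk: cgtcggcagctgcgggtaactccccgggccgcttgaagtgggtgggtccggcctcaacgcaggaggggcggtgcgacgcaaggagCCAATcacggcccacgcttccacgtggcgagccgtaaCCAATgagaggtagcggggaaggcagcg
Cenpf: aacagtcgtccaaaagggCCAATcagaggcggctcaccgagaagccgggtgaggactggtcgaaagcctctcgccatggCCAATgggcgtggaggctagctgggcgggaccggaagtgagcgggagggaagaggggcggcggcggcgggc
Kif23: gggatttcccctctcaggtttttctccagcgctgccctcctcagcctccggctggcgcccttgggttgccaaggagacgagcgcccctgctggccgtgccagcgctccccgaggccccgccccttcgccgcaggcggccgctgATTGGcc

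The Top2a sequence lies at chr11:99024190-99024339, minus strand, and carried 4 CCAAT boxes followed by TTTGAA on the minus strand 23 bases before the start. The Plk1 sequence (chr7:122159285-122159434, plus strand) held TTTAAA 89 and 29 bases before the start and a CCAAT box between the latter and the start. No match lay in the printed bases of Birc5 (chr11:117849087-117849236, plus strand). Those of Ttk (chr9:83834539-83834688, plus strand) and Cenpf (chr1:189688087-189688236, minus strand) held 2 CCAAT boxes each, and those of Kif23 (chr9:61946800-61946949, minus strand) a single minus-strand box 7 bases before the start. Thus members of the same programme differed in these bases, and Birc5 and Kif23 had the fewest matches of the 6. Nusap1, the most highly expressed member of the spindle fibre class, could also have been shown. Its bases are not printed, and its whole window held no match. For the 6 members shown, the rest of the window, not printed, held further matches. After the start, TTTGAA began at base 3 in Cenpf and Kif23, at base 8 in Ttk (minus strand) and at base 31 in Plk1. In Birc5 TTTAAA lay 220 bases before the start.

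Facts of the libraries that bear on the results come first. Total counts ran from 6470482 to 10196062 per library, so that 1 count was worth 0.0981 to 0.155 CPM, counts rescaled to the same total in every library, and 15263 to 17707 genes had a count. Cd4 measured 71.1 to 134 CPM in CD4 libraries and 1.45 to 7.94 in CD8 libraries, and Cd8a 142 to 534 CPM in CD8 and 2.84 to 22.5 in CD4 libraries. Atm RNA was 117 to 210 CPM in WT and 26.9 to 107 CPM in KO libraries. The allele is not described, so 3′ tags from RNA of the disrupted gene may be counted and the residual level does not test the genotype. Libraries of 2 pools stood apart. CD8 KO lymphoma replicate 1 had the lowest Cd8a of the CD8 libraries (142 CPM). Of all libraries it had the lowest pan-T marker sum (1571 CPM) and the highest erythroid marker sum (66279.5 CPM). KO lymphoma replicate 3 had the lowest Atm (26.9 CPM in CD4, 40.1 in CD8) and the highest sums of blood progenitor markers (1285 and 1069 CPM). The counts of members that passed with lymphoma are given below also without these libraries.

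The summed RNA of the 34 genes was low in WT controls and higher in WT mice with lymphoma. Summed over the 34 members, CD4 libraries measured 337, 288 and 315 CPM in WT controls, 563, 874 and 1227 in WT lymphoma, 498, 1131 and 563 in KO controls and 1195, 667 and 2662 in KO lymphoma. CD8 libraries measured 366, 303 and 311 CPM in WT controls, 498, 709 and 982 in WT lymphoma, 429, 607 and 353 in KO controls and 1808, 619.9 and 1679.7 in KO lymphoma. All 6 WT control libraries lay between 288 and 366 CPM, under every other group's libraries except CD8 KO control replicate 3 at 353 CPM. Within WT mice the lymphoma and control libraries did not overlap in either cell type. Within KO mice they overlapped in CD4 cells, because KO control replicate 2 was high and KO lymphoma replicate 2 was low, and they did not overlap in CD8 cells. Sums are dominated by the more abundant members and are a description with no test. In bulk RNA a larger share of dividing cells and more RNA per dividing cell cannot be told apart.

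**Figure D2:**
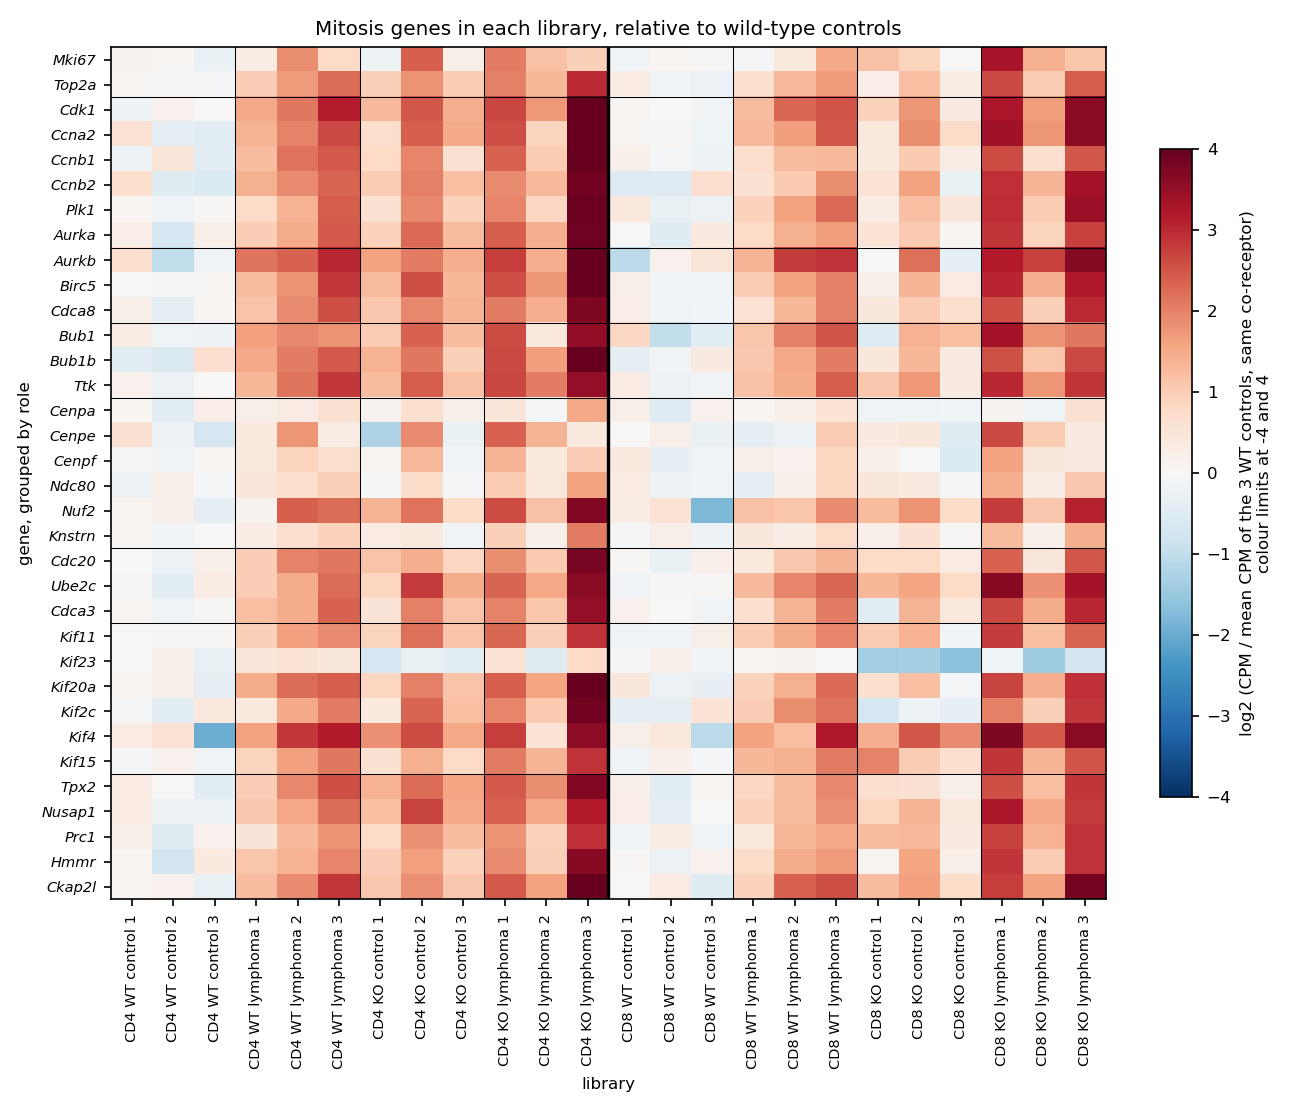
Level of each of the 34 members (rows, grouped by role) in each library (columns) as log2 of CPM over the mean of the 3 WT controls of the same co-receptor, with colour limits at -4 and 4. The WT lymphoma and KO columns are red for most members, darkest in CD4 KO lymphoma replicate 3, while Kif23 is blue in CD8 KO controls.

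The main comparison asked whether the RNA of the members changed with lymphoma, averaged over both genotypes. In CD8 cells 28 of 34 members rose and none fell (adjusted p under 0.05 in edgeR's quasi-likelihood test), where 11.6% of the 12650 genes tested rose and 6.12% fell. Their median log2 fold change was 1.55 over the 34 members and -0.03 over all genes tested. In CD4 cells 13 of 34 rose and none fell, where 5.72% of 12808 genes tested rose and 1.46% fell, and the median over the 34 was 1.44 against -0.02 over all genes. All 34 members had a positive fold change in both cell types. The 13 that rose in CD4 cells were Top2a, Cdk1, Ccnb1, Aurkb, Birc5, Cdca8, Bub1b, Ttk, Cdc20, Kif20a, Kif15, Tpx2 and Ckap2l, and each of them also rose in CD8 cells. In CD8 cells the 6 that did not pass were Mki67, Cenpa, Cenpe, Cenpf, Ndc80 and Kif23.

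**Figure D3:**
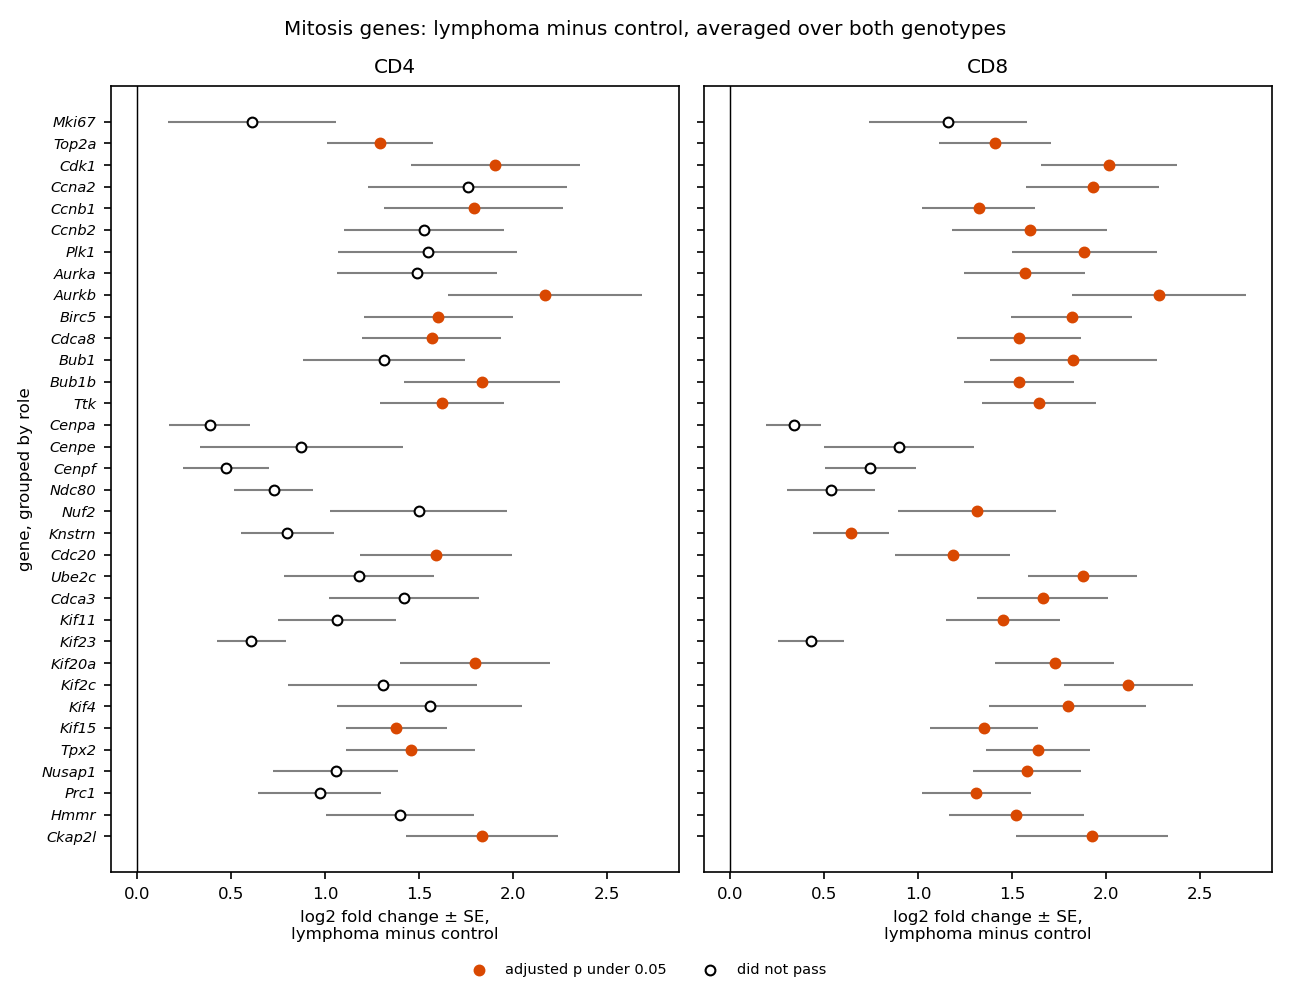
Log2 fold change of each member (horizontal axis, ± SE) for lymphoma minus control averaged over both genotypes, in CD4 (left) and CD8 cells (right), with members grouped by role on the vertical axis. Filled points passed an adjusted p of 0.05, 13 in CD4 and 28 in CD8 cells, and the member nearest to 0 in both panels is Cenpa, a centromere protein.

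The CD8 count moved less than the CD4 count when single libraries were left out. With any 1 of the 12 CD8 libraries left out, 22 to 31 members passed in CD8 cells, where 7.96 to 24.2% of genes passed in either direction. The count was 24 when KO lymphoma replicate 1 was left out (12.2% of genes) and 27 without KO lymphoma replicate 3 (14.4%). The CD8 calls lost in at least 1 of 18 alternatives were those of Nuf2 (14), Knstrn (11), Ccnb2 (5), Cdc20 (4), Bub1 (1) and Hmmr (1). The CD4 count of 13 fell to 2 without WT control replicate 1, where 3.84% of genes passed in either direction. It fell to 4 without WT control replicate 2 (4.52% of genes) and 3 without WT control replicate 3 (4.3%). It was 2 without KO control replicate 1 (3.52%) and also 2 without KO control replicate 3 (2.87%). It was 3 without WT lymphoma replicate 2 (3.55%) and 5 without WT lymphoma replicate 3 (3.16%). The share of all genes that passed thus also fell in these fits. Without KO lymphoma replicate 2, the library with the lowest mitosis sum of its group, 29 members passed in CD4 cells, where 15.9% of genes passed in either direction. Without KO lymphoma replicate 3, the library with the highest sum, 10 passed (6.18% of genes), and without KO lymphoma replicate 1, 11 passed (4.26% of genes). Each of the 13 CD4 calls was lost in at least 1 alternative, from 1 of 18 for Ttk and Kif15 to 13 of 18 for Ccnb1. With the share of B identifiers in the pool as a covariate no CD4 member passed (2.4% of genes did) and 26 CD8 members did (15.1% of genes). DESeq2 called 30 members in each cell type, where it called 12.1% of genes in CD4 and 22.4% in CD8 cells in either direction.

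Within each genotype, with 3 libraries on each side, few members passed. In WT mice no member passed in CD4 cells (edgeR, where 1.62% of genes rose and 0.0703% fell). At an unadjusted p under 0.05, 27 were higher, as were 10.6% of genes, and DESeq2 called 21, against 5.63% of genes in either direction. The 3 lymphoma libraries lay above all 3 controls for 30 members, where 16.4% of genes tested did so, and the median log2 fold change was 1.70. In CD8 cells of WT mice no member passed (1.26% of genes rose and 0.158% fell), 26 were higher at an unadjusted p under 0.05 (11.8% of genes), and DESeq2 called 20 (6.33% of genes). There 27 members were higher without overlap, against 14.2% of genes, with a median of 1.43. Without WT lymphoma replicate 1, which had the lowest mitosis sum of its group, edgeR called 4 members in CD4 (2.24% of genes in either direction) and 1 in CD8 cells (2.09%).

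In KO mice no CD4 member passed (0% of genes rose or fell), 18 were higher at an unadjusted p under 0.05 (9.21% of genes) and DESeq2 called 0. No CD4 member separated KO lymphoma from KO control libraries, where 8.8% of genes were higher without overlap, and the median was 1.14. Without CD4 KO lymphoma replicate 2, 5 members passed, and 3.83% of genes in either direction. In CD8 cells of KO mice 3 members rose and none fell (1.39% of genes rose and 0.791% fell). They were Ube2c (1.84 ± 0.40, SE, adjusted p 0.0495), the E2 enzyme that charges ubiquitin for the anaphase-promoting complex, Kif2c (2.48 ± 0.49, adjusted p 0.038), a kinesin that depolymerizes microtubules, and Tpx2 (1.86 ± 0.39, adjusted p 0.0449), which activates Aurora A on the spindle. At an unadjusted p under 0.05, 32 members were higher, as were 14.8% of genes. DESeq2 called 27, against 12.1% of genes in either direction, and 12 members were higher without overlap, against 14% of genes. The count was 26 without KO lymphoma replicate 2 (14.4% of genes in either direction). It was 0 without any 1 of KO control replicates 1, 2 and 3 or KO lymphoma replicates 1 and 3. In those fits 0, 0.0387, 0, 0.07 and 0.387% of genes passed in either direction, so few genes of any kind were called. The count was also 0 with the replicate number as a block, where 0.198% of genes passed.

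The difference between the genotypes in their lymphoma response was tested itself. No member passed in CD4 cells (edgeR, 0% of genes in either direction) or in CD8 cells (0%), and DESeq2 called 0 in each. No member had an unadjusted p under 0.05, where 1.13% of genes were higher and 2.51% lower in CD4 and 1.23% higher and 2.27% lower in CD8 cells. The median difference, KO response minus WT response, was -0.51 in CD4 and 0.26 in CD8 cells on the log2 scale. The standard error was as large as the difference or larger for 24 of 34 members in CD4 and 28 of 34 in CD8 cells, for example Plk1 with -0.17 ± 0.93 in CD4 and 0.32 ± 0.76 in CD8 cells. For Birc5 the difference was -0.92 ± 0.78 in CD4 and 0.39 ± 0.63 in CD8 cells. Differences of that size were therefore neither shown nor excluded with 3 libraries a group.

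By role, the DNA and chromatin proteins are described first. Top2a encodes topoisomerase II alpha, which untangles sister chromatids. In CD4 cells Top2a measured 56.2, 50.1 and 49.6 CPM in WT controls, 102, 169 and 242.97 in WT lymphoma, 100.3, 179 and 106 in KO controls and 211, 130.0 and 414 in KO lymphoma, given in replicate order. In CD8 cells Top2a reached 66.8, 47.3 and 45.2 CPM in WT controls, 81.9, 130.0 and 173 in WT lymphoma, 63.4, 122 and 65.5 in KO controls and 333, 108 and 286 in KO lymphoma. The WT lymphoma libraries lay above all WT controls in both cell types, while KO lymphoma replicate 2 lay inside the range of KO controls. Top2a rose with lymphoma in both cell types, by 1.29 ± 0.28 in CD4 (adjusted p 0.0222) and 1.41 ± 0.30 in CD8 cells (adjusted p 0.0131).

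Mki67 encodes the protein that coats mitotic chromosomes and is the usual antigen for staining proliferating cells. In CD4 cells Mki67 measured 16.7, 16.1 and 12.7 CPM in WT controls, 18.4, 54.4 and 26.5 in WT lymphoma, 13.03, 79.9 and 17.7 in KO controls and 62.98, 34.2 and 29.3 in KO lymphoma. For CD8 cells the levels of Mki67 were 11.1, 13.1 and 12.7 CPM in WT controls, 11.6, 16.6 and 35.02 in WT lymphoma, 27.4, 22.9 and 12.1 in KO controls and 122, 32.6 and 26.3 in KO lymphoma. A few libraries were high, namely CD8 KO lymphoma replicate 1, CD4 KO control replicate 2 and CD4 KO lymphoma replicate 1, and lymphoma and control libraries overlapped except in CD4 cells of WT mice. Mki67 did not pass in either cell type, with 0.61 ± 0.45 in CD4 (adjusted p 0.426) and 1.16 ± 0.42 in CD8 cells (adjusted p 0.0803). Its order of libraries differed from that of Birc5, a member of the chromosomal passenger complex. The count of Mki67 per count of Birc5 was lowest in KO lymphoma replicate 3, at 0.0916 in CD4 and 0.119 in CD8, and elsewhere ran from 0.183 to 0.994. KO lymphoma replicate 3 was also lowest for Cenpe per Birc5 (0.0367 and 0.0508) and Cenpf per Birc5 (0.146 and 0.143). Top2a per Birc5 was lowest there too (1.296 and 1.294), so the lowest rank was not particular to Mki67, Cenpe and Cenpf. The drop from WT controls was smaller for Top2a, which ran from 2.07 to 2.81 per Birc5 there. Mki67 ran from 0.390 to 0.835 and Cenpf from 0.901 to 1.23 per Birc5 in WT controls. Mki67, Cenpe and Cenpf were chosen for these ratios after their values were seen. Tags from different genes differ in how they are captured, so only the change of such a ratio between libraries can be read.

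**Figure D4:**
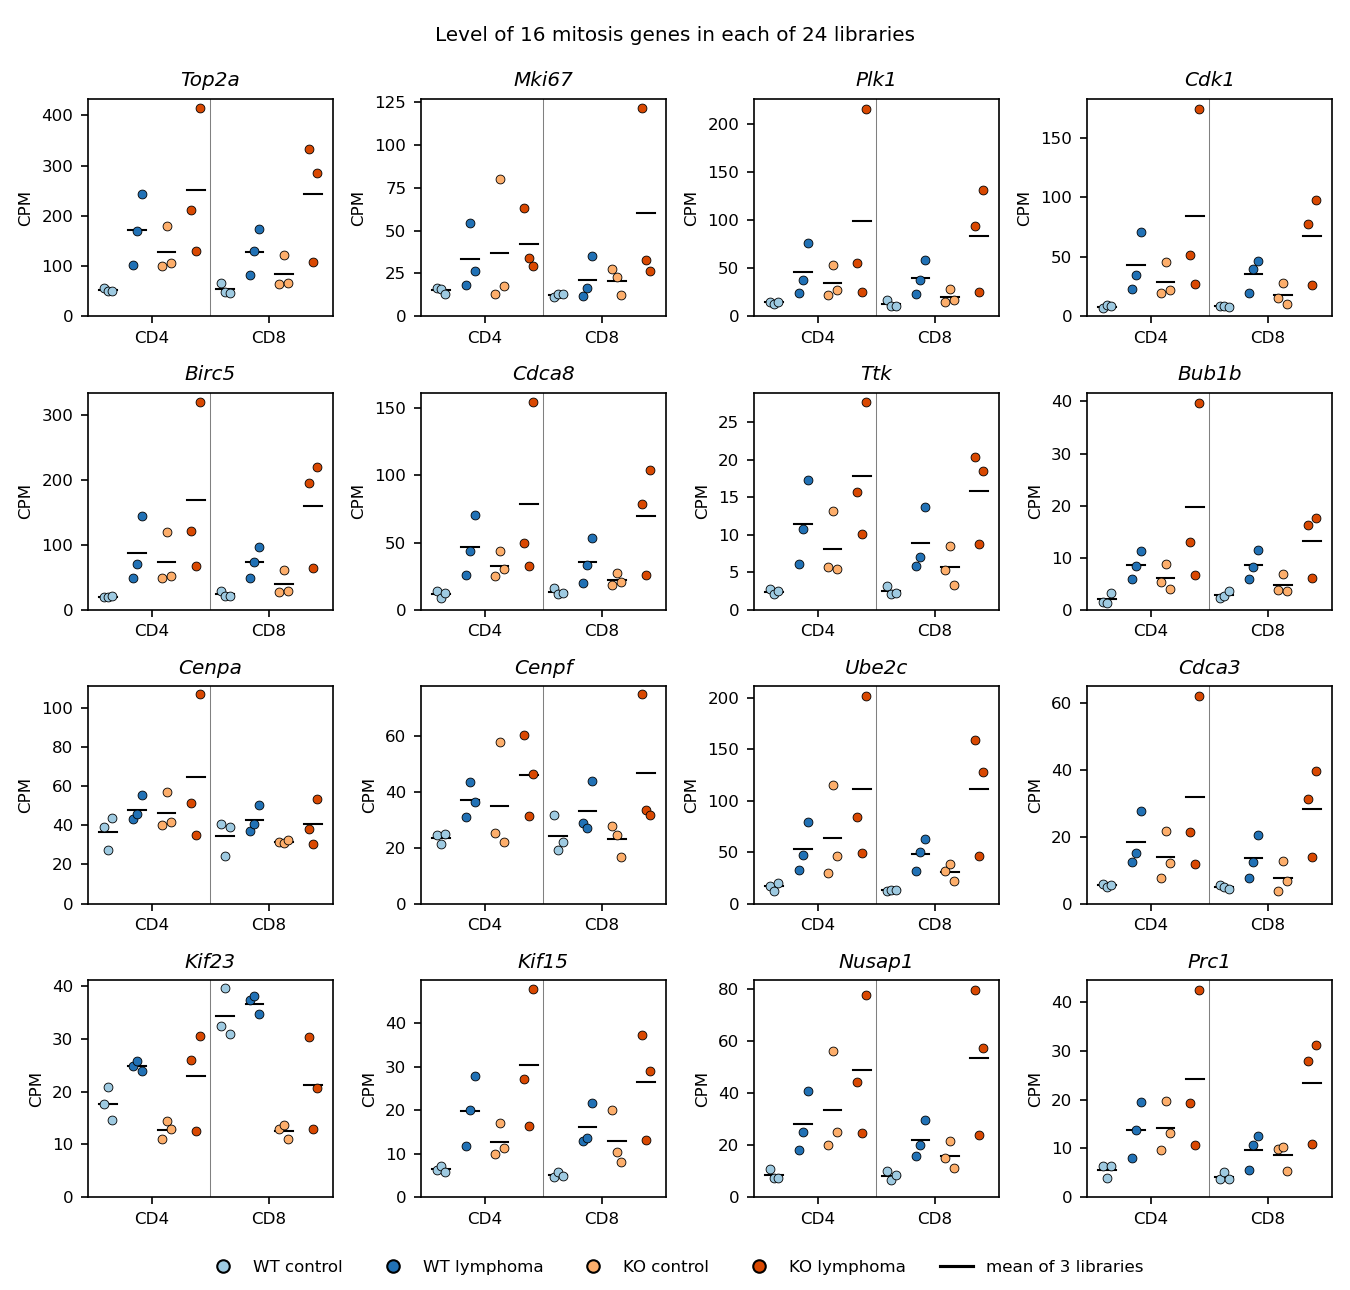
Level in CPM (vertical axis from 0, linear) of the 16 members described library by library, in the 8 groups along the horizontal axis (CD4 left, CD8 right of the grey line). Points are single libraries and bars are means of 3. For most genes WT controls are lowest and KO lymphoma libraries spread most, while Kif23 is highest in the 6 CD8 WT libraries.

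The second class holds cyclin-dependent kinase 1, its cyclins and the kinases that act with it. Cdk1 encodes the kinase that drives entry into mitosis. In CD4 cells Cdk1 measured 6.92, 9.02 and 8.19 CPM in WT controls, 22.99, 34.7 and 70.7 in WT lymphoma, 19.6, 45.4 and 22.2 in KO controls and 51.4, 26.6 and 175 in KO lymphoma. CD8 libraries gave 8.73, 8.11 and 7.49 CPM in WT controls, 19.4, 39.7 and 46.3 in WT lymphoma, 15.4, 27.7 and 10.3 in KO controls and 77.3, 26.01 and 98.3 in KO lymphoma for Cdk1. WT controls stayed at or under 9.02 CPM and all other libraries were above them, from 10.3 CPM in CD8 KO control replicate 3 upward. Cdk1 rose by 1.91 ± 0.45 in CD4 (adjusted p 0.0313) and by 2.01 ± 0.36 in CD8 cells (adjusted p 0.00704). Plk1 encodes Polo-like kinase 1, which acts at centrosomes, kinetochores and the midzone. In CD4 cells Plk1 measured 14.9, 13.1 and 14.8 CPM in WT controls, 24.5, 37.6 and 76.2 in WT lymphoma, 21.6, 53.6 and 27.2 in KO controls and 55.3, 25.2 and 216 in KO lymphoma. The CD8 values of Plk1 were 16.3, 10.03 and 10.3 CPM in WT controls, 23.1, 37.5 and 58.9 in WT lymphoma, 15.1, 27.97 and 17.1 in KO controls and 93.9, 24.8 and 132 in KO lymphoma. KO lymphoma replicates 1 and 3 were high and replicate 2 stayed near KO control levels. Plk1 rose in CD8 cells (1.88 ± 0.39, adjusted p 0.0117) and did not pass in CD4 cells (1.55 ± 0.48, adjusted p 0.0766).

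The other members of this class followed the same order of groups. Ccnb1, the main mitotic cyclin, rose in both cell types (1.79 ± 0.47 in CD4, adjusted p 0.0462, and 1.32 ± 0.30 in CD8, adjusted p 0.0147). Ccna2, the S and G2 phase cyclin, rose in CD8 cells (1.93 ± 0.35, adjusted p 0.00683), and so did Ccnb2 (1.59 ± 0.41, adjusted p 0.0242). Aurka, the centrosomal Aurora kinase, also rose in CD8 cells (1.57 ± 0.32, adjusted p 0.0106). In CD4 cells these 3 had fold changes of 1.76, 1.53 and 1.49 without passing.

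All 3 members of the chromosomal passenger complex, which corrects faulty attachments and later steers cytokinesis, rose in both cell types. Birc5 encodes survivin, the subunit that docks the complex on centromeres. In CD4 cells Birc5 measured 19.99, 19.4 and 21.3 CPM in WT controls, 48.8, 69.99 and 145 in WT lymphoma, 49.05, 121 and 51.4 in KO controls and 121, 68.2 and 319.8 in KO lymphoma. In CD8 cells Birc5 reached 28.4, 21.5 and 21.9 CPM in WT controls, 48.6, 73.6 and 96.7 in WT lymphoma, 27.5, 61.8 and 29.7 in KO controls and 196, 65.2 and 221 in KO lymphoma. Mean levels in CD4 cells were 20.2 ± 0.98 CPM (SD, n = 3) in WT controls, 87.9 ± 50.6 in WT lymphoma, 73.7 ± 40.7 in KO controls and 169.8 ± 133 in KO lymphoma. The WT controls were thus tight and the KO lymphoma libraries spread most. Birc5 rose by 1.6 ± 0.40 in CD4 (adjusted p 0.0365) and 1.81 ± 0.32 in CD8 cells (adjusted p 0.00689). Cdca8 encodes borealin, another targeting subunit. In CD4 cells Cdca8 measured 13.7, 9.02 and 12.4 CPM in WT controls, 25.6, 43.6 and 70.3 in WT lymphoma, 24.8, 43.9 and 29.98 in KO controls and 49.9, 32.3 and 154 in KO lymphoma. For CD8 cells the levels of Cdca8 were 15.9, 11.8 and 12.2 CPM in WT controls, 20.1, 33.5 and 53.6 in WT lymphoma, 18.2, 27.2 and 20.9 in KO controls and 78.6, 25.8 and 104 in KO lymphoma. The lowest lymphoma library of WT mice again lay above the highest WT control in both cell types. Cdca8 rose by 1.57 ± 0.37 in CD4 (adjusted p 0.0301) and 1.54 ± 0.33 in CD8 cells (adjusted p 0.0136). Aurkb, the kinase of the complex, had the largest fold changes of the 34, 2.17 ± 0.51 in CD4 (adjusted p 0.0288) and 2.28 ± 0.46 in CD8 cells (adjusted p 0.00893), from 0.291 to 1.10 CPM in WT controls, where it had 2 to 10 counts a library.

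The spindle assembly checkpoint delays anaphase while a kinetochore is unattached, and Ttk, Bub1 and Bub1b supply its kinases and its scaffold. Ttk encodes MPS1, the kinase that starts the signal. In CD4 cells Ttk measured 2.75, 2.08 and 2.47 CPM in WT controls, 6.06, 10.8 and 17.3 in WT lymphoma, 5.67, 13.1 and 5.46 in KO controls and 15.7, 10.1 and 27.6 in KO lymphoma. CD8 libraries gave 3.20, 2.14 and 2.29 CPM in WT controls, 5.78, 7.06 and 13.7 in WT lymphoma, 5.35, 8.47 and 3.25 in KO controls and 20.4, 8.71 and 18.5 in KO lymphoma for Ttk. Ttk rose by 1.62 ± 0.33 in CD4 (adjusted p 0.0149) and by 1.64 ± 0.30 in CD8 cells (adjusted p 0.00641). Bub1b encodes BUBR1, a subunit of the inhibitor of CDC20. In CD4 cells Bub1b measured 1.54, 1.39 and 3.25 CPM in WT controls, 5.94, 8.44 and 11.4 in WT lymphoma, 5.37, 8.86 and 4.01 in KO controls and 12.9, 6.61 and 39.8 in KO lymphoma. The CD8 values of Bub1b were 2.18, 2.59 and 3.62 CPM in WT controls, 5.90, 8.22 and 11.6 in WT lymphoma, 3.82, 6.96 and 3.60 in KO controls and 16.2, 6.09 and 17.6 in KO lymphoma. WT controls held at most 3.62 CPM and WT lymphoma libraries at least 5.90 CPM. Bub1b rose by 1.83 ± 0.41 in CD4 (adjusted p 0.0244) and by 1.53 ± 0.29 in CD8 cells (adjusted p 0.00694). Bub1, which recruits the others to the kinetochore, rose in CD8 cells (1.82 ± 0.44, adjusted p 0.018) and had 1.31 ± 0.43 in CD4 cells (adjusted p 0.0863).

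The 6 kinetochore and centromere members had the lowest median log2 fold change of the role classes, 0.76 in CD4 and 0.69 in CD8 cells, and the classes were not tested against each other. Their values ran from 0.39 (Cenpa) to 1.5 (Nuf2) in CD4 and from 0.34 (Cenpa) to 1.31 (Nuf2) in CD8 cells. Of them, 0 of 6 rose in CD4 and 2 of 6 in CD8 cells. These were Nuf2 (1.31 ± 0.42, adjusted p 0.0497), a subunit of the microtubule-binding NDC80 complex, and Knstrn (0.64 ± 0.20, adjusted p 0.0458), a kinetochore and spindle protein. The CD8 call was lost in 14 of 18 alternatives for Nuf2 and in 11 of 18 for Knstrn. Cenpa encodes the histone variant that marks the centromere. In CD4 cells Cenpa measured 38.9, 27.3 and 43.7 CPM in WT controls, 43.1, 45.7 and 55.3 in WT lymphoma, 40.3, 56.8 and 41.9 in KO controls and 51.5, 35.2 and 107 in KO lymphoma. In CD8 cells Cenpa reached 40.6, 24.6 and 39.1 CPM in WT controls, 36.9, 40.6 and 50.4 in WT lymphoma, 31.3, 31.1 and 32.5 in KO controls and 38.3, 30.7 and 53.6 in KO lymphoma. Lymphoma and control libraries overlapped in both cell types and genotypes, and CD4 KO lymphoma replicate 3 stood alone above 56.8 CPM. Cenpa did not pass, at 0.39 ± 0.22 in CD4 (adjusted p 0.301) and 0.34 ± 0.15 in CD8 cells (adjusted p 0.124). Cenpf encodes a large kinetochore protein of G2 and mitosis. In CD4 cells Cenpf measured 24.5, 21.5 and 24.9 CPM in WT controls, 31.1, 43.6 and 36.6 in WT lymphoma, 25.5, 58.04 and 21.96 in KO controls and 60.6, 31.2 and 46.6 in KO lymphoma. For CD8 cells the levels of Cenpf were 31.9, 19.4 and 21.98 CPM in WT controls, 28.9, 27.2 and 43.9 in WT lymphoma, 27.8, 24.6 and 16.7 in KO controls and 75.03, 33.7 and 31.6 in KO lymphoma. CD8 KO lymphoma replicate 1 was highest, and CD8 WT lymphoma overlapped with its controls. Cenpf did not pass in either cell type (0.48 ± 0.23 and 0.75 ± 0.24, adjusted p 0.231 and 0.0532). Cenpe, a kinetochore kinesin, ran from 3.78 to 54.3 CPM, and Ndc80 from 4.84 to 21.5 CPM, and neither passed.

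Mitotic exit needs the anaphase-promoting complex, a ubiquitin ligase served by the activator Cdc20 and the enzyme Ube2c. In CD4 cells Ube2c measured 17.03, 12.5 and 20.4 CPM in WT controls, 32.8, 46.7 and 79.05 in WT lymphoma, 30.05, 115 and 46.5 in KO controls and 84.1, 49.1 and 201 in KO lymphoma. CD8 libraries gave 11.9, 13.2 and 13.4 CPM in WT controls, 31.6, 49.6 and 63.1 in WT lymphoma, 31.9, 38.7 and 22.2 in KO controls and 159, 45.9 and 128 in KO lymphoma for Ube2c. In CD8 cells the 3 lymphoma libraries lay above the 3 controls in both genotypes. Ube2c rose in CD8 cells (1.87 ± 0.29, adjusted p 0.00423) in all 18 alternatives, and did not pass in CD4 cells (1.18 ± 0.40, adjusted p 0.0986), where KO control replicate 2 exceeded 2 of the 3 KO lymphoma libraries. Cdca3, a trigger of mitotic entry, followed. In CD4 cells Cdca3 measured 5.82, 4.86 and 5.56 CPM in WT controls, 12.5, 15.1 and 27.7 in WT lymphoma, 7.76, 21.7 and 12.04 in KO controls and 21.4, 11.7 and 62.1 in KO lymphoma. The CD8 values of Cdca3 were 5.53, 4.84 and 4.47 CPM in WT controls, 7.67, 12.6 and 20.6 in WT lymphoma, 3.67, 12.8 and 6.61 in KO controls and 31.3, 13.8 and 39.8 in KO lymphoma. Its CD8 lymphoma libraries also lay above the controls of the same genotype. Cdca3 rose in CD8 (1.66 ± 0.35, adjusted p 0.0117) and not in CD4 cells (1.42 ± 0.40, adjusted p 0.0557). Cdc20 rose in both, by 1.59 ± 0.40 in CD4 (adjusted p 0.0401) and 1.18 ± 0.31 in CD8 cells (adjusted p 0.024).

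Of the 6 kinesins, motors that slide, sort or cut microtubules, 2 rose in CD4 cells and 5 in CD8 cells. Kif15 encodes a motor that helps keep the bipolar spindle. In CD4 cells Kif15 measured 6.15, 7.28 and 5.87 CPM in WT controls, 11.9, 19.9 and 27.8 in WT lymphoma, 9.85, 17.1 and 11.3 in KO controls and 27.1, 16.4 and 47.7 in KO lymphoma. In CD8 cells Kif15 reached 4.66, 5.86 and 4.83 CPM in WT controls, 12.98, 13.6 and 21.6 in WT lymphoma, 20.03, 10.3 and 8.12 in KO controls and 37.3, 13.1 and 29.1 in KO lymphoma. WT controls held at most 7.28 CPM, under every other library. Kif15 rose by 1.38 ± 0.27 in CD4 (adjusted p 0.0124) and 1.35 ± 0.29 in CD8 cells (adjusted p 0.0115). Kif20a, a motor of cytokinesis, rose by 1.80 ± 0.40 in CD4 (adjusted p 0.0233) and 1.72 ± 0.32 in CD8 cells (adjusted p 0.00668). In CD8 cells Kif11, the motor that parts the spindle poles, rose by 1.45 ± 0.30 (adjusted p 0.0106), Kif2c by 2.12 ± 0.34 (adjusted p 0.00394) and Kif4, a chromosome-bound motor, by 1.79 ± 0.42 (adjusted p 0.0155). The remaining kinesin, Kif23, is described below because its pattern differed.

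Proteins that bundle or nucleate spindle fibres make up the last class. Nusap1 encodes a protein that crosslinks microtubules near chromatin. In CD4 cells Nusap1 measured 10.98, 7.51 and 7.57 CPM in WT controls, 18.3, 25.2 and 41.02 in WT lymphoma, 20.00, 56.2 and 25.2 in KO controls and 44.2, 24.7 and 78.03 in KO lymphoma. For CD8 cells the levels of Nusap1 were 10.04, 6.53 and 8.45 CPM in WT controls, 15.7, 20.04 and 29.9 in WT lymphoma, 14.98, 21.5 and 11.3 in KO controls and 79.9, 23.8 and 57.4 in KO lymphoma. The highest library was CD8 KO lymphoma replicate 1, closely followed by CD4 KO lymphoma replicate 3. Nusap1 rose in CD8 cells (1.58 ± 0.29, adjusted p 0.00695) and not in CD4 cells (1.06 ± 0.33, adjusted p 0.0807). Prc1 encodes the bundler of the central spindle. In CD4 cells Prc1 measured 6.48, 4.05 and 6.34 CPM in WT controls, 7.96, 13.8 and 19.4 in WT lymphoma, 9.65, 19.8 and 13.2 in KO controls and 19.3, 10.6 and 42.5 in KO lymphoma. CD8 libraries gave 3.78, 5.18 and 3.74 CPM in WT controls, 5.66, 10.7 and 12.5 in WT lymphoma, 9.94, 10.3 and 5.45 in KO controls and 27.95, 10.99 and 31.2 in KO lymphoma for Prc1. WT lymphoma lay above WT controls in both cell types, and KO lymphoma above KO controls in CD8 cells. Prc1 rose in CD8 (1.31 ± 0.29, adjusted p 0.013) and not in CD4 cells (0.97 ± 0.33, adjusted p 0.0951). Tpx2 rose in both (1.46 ± 0.34 in CD4, adjusted p 0.0294, and 1.64 ± 0.28 in CD8, adjusted p 0.00492), as did Ckap2l, a spindle pole protein (1.84 ± 0.40, adjusted p 0.023, and 1.92 ± 0.40, adjusted p 0.0117). Hmmr, which anchors spindle poles, rose in CD8 cells (1.52 ± 0.36, adjusted p 0.0173) and had 1.40 ± 0.39 in CD4 cells (adjusted p 0.0554).

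Single pools carried the extremes. Of the 34 members, 29 were highest in CD4 KO lymphoma replicate 3. Mki67, Cenpe, Cenpf and Nusap1 were highest in CD8 KO lymphoma replicate 1, and Kif23 in CD8 WT control replicate 2. The lowest library was a WT control for 28 members. Levels in KO lymphoma replicate 2 came close to those of KO controls in both cell types, which came from the same mice.

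Loss of Atm was compared in mice without lymphoma. In CD4 cells 33 of 34 members had a positive fold, KO over WT, with a median of 1.36 against -0.01 over all genes. None passed (edgeR, where 1.94% of genes rose and 0.0703% fell), 18 were higher at an unadjusted p under 0.05 (12.5% of genes), and DESeq2 called 7 (6.29% of genes in either direction). For 26 members all 3 KO controls lay above all 3 WT controls, where 21.4% of genes tested did so, and for Kif23 they lay below, as for 11.3% of genes. The smallest adjusted p was that of Nusap1 (1.88 ± 0.48, adjusted p 0.0731). In CD8 cells the median was 0.78 against 0.04 over all genes, and 30 of 34 had a positive fold. None rose (0.403% of genes did) and 8 were higher at an unadjusted p under 0.05 (8.99% of genes). For 14 members the KO controls lay above the WT controls without overlap, where 12.1% of all genes did, and for Kif23 they lay below, as for 12.7% of genes. DESeq2 called 3, Kif23 among them, and 3.03% of genes in either direction. KO control replicate 2, a pool of B mice, had the highest sums of the group, and WT control replicate 3 was the single B pool among WT controls.

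Some markers of other blood cells were also higher in KO than in WT controls. In CD4 cells 6 of 11 monocyte and macrophage markers rose, 4 of 8 platelet markers, 5 of 12 T cell activation genes and 1 of 7 NK cell markers, and none fell in these lists. No erythroid marker passed, but 16 of 17 were higher at an unadjusted p under 0.05, with a median log2 fold change of 2.70, and their sum was 445 to 9446 CPM in WT and 5151 to 35367 CPM in KO controls. Within each genotype this sum was highest in pools of B identifiers. It was 818 and 445 CPM in the S and 9446 in the B pools of WT controls. In KO controls it was 5151 CPM in the S and 35367 and 19334 in the B pools. The part of the identifier letter in this sum was not tested. Of the B cell markers 7 of 12 and of the progenitor markers 7 of 12 were higher at an unadjusted p under 0.05. In CD8 cells 2 of 11 T cell activation genes rose and no marker of the blood lineages above passed. There 7 of 11 monocyte and macrophage, 7 of 8 platelet and 6 of 16 erythroid markers were higher at an unadjusted p under 0.05. The monocyte and macrophage sum was 578 to 1009.9 CPM in WT and 1511 to 2008 CPM in KO controls in CD4 cells, and 211 to 1124 and 1285 to 1296 CPM in CD8 cells. These markers moved with the same comparison as the mitosis genes, and their part in it was not tested.

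With lymphoma the genotypes overlapped more. In CD4 cells 32 of 34 members had a positive fold, KO over WT, with a median of 0.78. None passed (0% of genes rose or fell), none had an unadjusted p under 0.05 (5.89% of genes were higher and 4.97% lower), DESeq2 called 0, and no member was without overlap, where 6.81% of genes were higher without overlap. In CD8 cells the median was 0.99, none passed (0.0711% of genes rose and 0.174% fell), 16 were higher at an unadjusted p under 0.05 (8.51% of genes) and DESeq2 called 3 (4.87% of genes in either direction). Without CD8 KO lymphoma replicate 2, 14 members passed, as did 7.58% of genes in either direction. Without replicate 1 or replicate 3 of that group 0 passed, where 0.117% and 0.0232% of genes did. No member was higher without overlap (8.03% of genes were), and 1 member, Kif23, was lower without overlap (13.5% of genes were).

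Kif23 was the exception among the 34. It encodes the kinesin MKLP1, a subunit of the centralspindlin complex that organizes the cleavage furrow. In CD4 cells Kif23 measured 17.6, 20.9 and 14.5 CPM in WT controls, 24.9, 25.8 and 23.98 in WT lymphoma, 11.04, 14.5 and 12.9 in KO controls and 26.00, 12.5 and 30.4 in KO lymphoma. The CD8 values of Kif23 were 32.4, 39.7 and 30.9 CPM in WT controls, 37.3, 38.02 and 34.7 in WT lymphoma, 12.99, 13.7 and 11.02 in KO controls and 30.3, 12.8 and 20.7 in KO lymphoma. All 6 CD8 WT libraries, with or without lymphoma, lay above the other 18 libraries (at least 30.9 against at most 30.4 CPM), and the 3 CD8 KO controls lay at or under 13.7 CPM. In CD8 controls Kif23 fell in KO against WT mice, the only member to do so (-1.42 ± 0.25, adjusted p 0.0348, where 0.119% of genes fell). Means were 34.3 ± 4.67 CPM (SD, n = 3) in WT and 12.6 ± 1.39 in KO controls. In CD8 lymphoma it was again lower in KO mice, without passing (-0.77 ± 0.24, adjusted p 0.16). In CD4 cells the difference was -0.55 ± 0.26 in controls (adjusted p 0.29) and -0.17 ± 0.26 with lymphoma (adjusted p 0.803). The call in CD8 controls was lost when any 1 of the 6 libraries was left out, with a fold change of -1.52 to -1.30 and adjusted p from 0.0617 to 0.163, with the replicate number as a block (adjusted p 0.053) and with the share of B identifiers (adjusted p 0.0758). DESeq2 gave an adjusted p of 6.5e-05.

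Kif23 also differed between the cell types. In WT controls it was higher in CD8 than in CD4 cells (0.98 ± 0.26, adjusted p 0.0397, where 1.86% of genes were higher and 1.62% lower), in a fit that left out the pairing of libraries from the same mice. With the mouse pool as a block the difference was 0.99 ± 0.15 (adjusted p 0.00072). The call was lost with DESeq2 size factors (adjusted p 0.0504) and without each of CD4 WT control replicates 1 and 3 and CD8 WT control replicates 1, 2 and 3, with adjusted p from 0.0571 to 0.189. In KO controls the difference was 0.06 ± 0.27 (adjusted p 0.947). Whether the CD8 to CD4 difference itself differed between genotypes was not tested. Kif23 lies on chromosome 9 (chr9:61915905-61946774, minus strand, GENCODE M21 on GRCm38), 8.38 Mb from Atm (chr9:53439149-53536740, minus strand). The other members on that chromosome, Ccnb2 at 16.9 Mb, Ttk at 30.3 Mb and Kif15 at 69.4 Mb from Atm, had positive folds in KO against WT controls in both cell types.

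Without the pairing of libraries, Kif23 was the single member to pass between CD8 and CD4 cells. In WT controls the median CD8 minus CD4 difference was 0.00 and 17 of 34 were positive. None passed in WT lymphoma (edgeR, 1.16% of genes were higher and 1.38% lower, median -0.25), in KO controls (2.35% higher and 2.6% lower, median -0.54) or in KO lymphoma (1.11% higher and 1.24% lower, median -0.04), and DESeq2 called 0 in each. At an unadjusted p under 0.05, 1 was higher in WT lymphoma (3.88% of genes), 2 were lower in KO controls (8.7% of genes) and none was either in KO lymphoma (5.83% higher, 5.64% lower). With the mouse pool as a block, which uses the origin of both libraries in the same mice, Kif23 was again higher in CD8 cells in WT lymphoma (0.63 ± 0.14, adjusted p 0.0218), where 3.45% of genes passed in either direction. In KO controls 5 of 34 members were lower in CD8 than in CD4 cells with that block, where 8.96% of genes passed in either direction. They were Kif2c (-1.72 ± 0.33, adjusted p 0.00433), Nusap1 (-0.92 ± 0.22, adjusted p 0.0203), Cdca3 (-0.79 ± 0.21, adjusted p 0.0278), Birc5 (-0.78 ± 0.20, adjusted p 0.0288) and Tpx2 (-0.84 ± 0.24, adjusted p 0.0432). For a difference in lymphoma response between CD8 and CD4 cells no member passed, by edgeR or DESeq2, in WT (median difference -0.28) or in KO mice (0.49), where 0% of genes passed. No member had an unadjusted p under 0.05, while 0.476% of genes were higher and 0.884% lower in WT and 3.24% higher and 1.5% lower in KO mice.

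Other mitosis genes and S phase genes also rose with lymphoma, while regulators of G2 and M transcription had medians near 0. Of 64 other mitosis genes tested, 23 rose in CD4 and 33 in CD8 cells with lymphoma, with medians of 0.99 and 1.08 and none lower. They included Kntc1, a checkpoint protein (1.39 ± 0.24 in CD4, adjusted p 0.00642), and Pbk, a mitotic kinase (2.71 ± 0.44 in CD8, adjusted p 0.00392). Of 36 S phase genes, which copy DNA, 17 rose in CD4 and 27 in CD8 cells, among them Hells, a chromatin remodeller (0.81 ± 0.14 in CD4, adjusted p 0.00717), and E2f1, the activator of S phase genes (1.34 ± 0.20 in CD8, adjusted p 0.00289). Of 15 regulators of G2 and M transcription, 3 rose in each cell type. Foxm1, which activates these promoters, rose in both (1.19 ± 0.30, adjusted p 0.0348, and 0.80 ± 0.21, adjusted p 0.0248). Mybl2 rose in CD4 cells (1.40 ± 0.36, adjusted p 0.0394) and had 1.13 ± 0.39 in CD8 cells (adjusted p 0.0682). The medians of the 15 were 0.12 and 0.02.

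Among genes of G1 and inhibitors of cyclin-dependent kinases, 2 of 17 rose in CD4 and 5 of 16 in CD8 cells. Among them was Cdkn1a, which encodes p21, an inhibitor that halts division. In CD4 cells Cdkn1a measured 0.659, 0.462 and 0.927 CPM in WT controls, 2.53, 5.04 and 7.10 in WT lymphoma, 4.48, 3.33 and 2.45 in KO controls and 10.5, 7.21 and 8.96 in KO lymphoma. In CD8 cells Cdkn1a reached 0.582, 1.35 and 0.966 CPM in WT controls, 2.24, 4.88 and 8.35 in WT lymphoma, 1.38, 2.55 and 2.20 in KO controls and 8.04, 5.88 and 6.40 in KO lymphoma. Like most mitosis genes it was lowest in WT controls, though the libraries with the most mitosis RNA were not the highest. Cdkn1a rose with lymphoma by 2.06 ± 0.28 in CD4 (adjusted p 0.00209) and by 2.04 ± 0.33 in CD8 cells (adjusted p 0.00392), and it rose in CD4 KO over WT controls (2.26 ± 0.44, adjusted p 0.0312).

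RNA of other blood lineages, which divide outside the T cell compartment, moved with the same contrasts. Of the progenitor markers tested, 10 of 12 rose in CD4 and 11 of 11 in CD8 cells with lymphoma. Their sum was 99.3 to 132 CPM in CD4 WT controls, 248 to 651 in WT lymphoma, 218 to 305 in KO controls and 318.2 to 1285 in KO lymphoma. In CD8 cells it was 152 to 177, 244 to 603, 209 to 266 and 304 to 1069 CPM. A large part of this sum was Cdk6, which was also counted among the G1 genes, so the sum does not measure progenitors alone. Cdk6 gave 52.0 CPM in CD4 WT control replicate 1 and 490.5 in CD4 KO lymphoma replicate 3. In CD8 cells it gave 94.7 CPM in WT control replicate 1 and 449 in KO lymphoma replicate 3. Granulocyte precursor markers summed to 9.48 to 33.2 CPM in CD4 WT controls and 65.4 to 632 CPM in KO lymphoma, and 5 of 9 rose in CD4 and 4 of 8 in CD8 cells. Mpo, the enzyme of neutrophil granules, reached 349.6 CPM in CD4 KO lymphoma replicate 3, which also held the most mitosis RNA. No marker of these lists was at 0 in all libraries of a group except Fcnb in CD8 KO controls.

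With lymphoma 2 of 17 erythroid markers rose in CD4 cells. In CD8 cells 9 of 16 rose, averaged over both genotypes. The CD8 erythroid sum was 410 to 4021 CPM in WT controls and 1003 to 2945 in WT lymphoma. It was 1282 to 3475 CPM in KO controls and 1499.7 to 66279.5 in KO lymphoma. The top value was replicate 1 alone, with 7962 CPM in replicate 2 and 1499.7 in replicate 3. That pool held the only B mouse of its group. In CD8 controls the sum was also highest in B pools within each genotype, at 4021 CPM in WT and 3475 and 2082 CPM in KO mice. CD4 KO control replicate 2 combined the highest erythroid sum of the CD4 libraries with a mitosis sum of 1131 CPM. Other CD4 libraries did not pair the 2 sums in this way. KO control replicate 3 had the next highest erythroid sum, 19334 CPM, with a mitosis sum of 563 CPM. KO lymphoma replicate 3 had the highest mitosis sum, 2662 CPM, with an erythroid sum of 4161 CPM. Platelet markers rose in 8 of 8 cases in CD4 and 7 of 8 in CD8 cells. Pan-T markers fell in 2 of 16 cases in CD4 and 11 of 16 in CD8 cells, and their sum was lowest in KO lymphoma, at 2411 to 4224 CPM in CD4 and 1571 to 3218 CPM in CD8 cells, against 5189 to 5894 and 4513 to 5209.7 CPM in WT controls. T cell activation genes rose in 3 of 12 cases in CD4 and 1 of 11 in CD8 cells, and 1 of 11 fell there. Monocyte and macrophage markers rose in 3 of 11 cases and fell in 1 in CD4 cells, and rose in 5 of 11 in CD8 cells. NK cell markers fell in 4 of 7 cases in CD4 cells, and none of 7 passed in CD8 cells, where 1 was lower at an unadjusted p under 0.05. Of 12 B cell markers 1 fell in CD4 cells, and in CD8 cells none passed by edgeR or had an unadjusted p under 0.05. In CD4 cells the B cell marker sum was 56.9 to 462 CPM in WT controls, 85.7 to 184 in WT lymphoma, 495 to 639 in KO controls and 100.4 to 167 in KO lymphoma. Within CD4 KO mice all 12 B cell markers were lower with lymphoma at an unadjusted p under 0.05, with a median of -2.41, and none passed after adjustment. In CD8 cells the sum was 94.8 to 486 CPM in WT controls, 100.02 to 214 in WT lymphoma, 215.1 to 271.1 in KO controls and 105 to 1282 in KO lymphoma, highest in replicate 1. Progenitor and granulocyte precursor sums were higher in KO lymphoma replicates 1 and 3 than in replicate 2, as mitosis sums were, in both cell types. The other marker sums did not all follow. In CD4 WT lymphoma the erythroid sum was 3874, 3260 and 1587 CPM in replicate order, where the mitosis sum was 563, 874 and 1227 CPM. The part of these markers in the result was not tested.

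**Figure D5:**
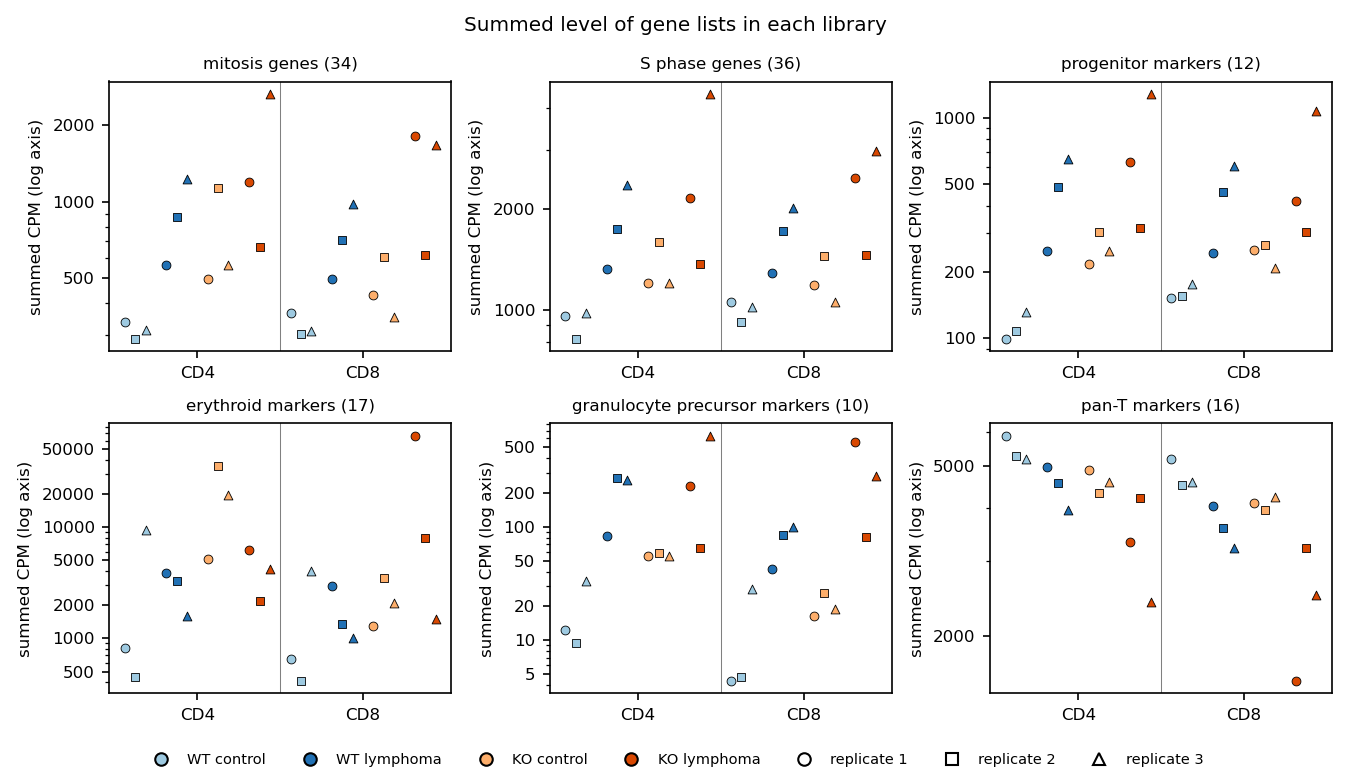
Summed level in CPM (vertical axes, log scale) of the mitosis genes, S phase genes and 4 marker lists in each of the 24 libraries, CD4 left and CD8 right, with colour for the group and symbol for the replicate. KO lymphoma replicates 1 and 3 lie above replicate 2 in mitosis genes, progenitor and granulocyte precursor markers and below it in pan-T markers, in both cell types.

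RNA from the Y chromosome gives a further difference between pools, and it sets WT controls apart from most libraries of the other groups. Ddx3y, Eif2s3y and Uty summed to 68.1 to 189 CPM in CD4 WT controls, whereas the medians of the other CD4 groups were 2.69 to 4.80 CPM, with single libraries up to 117. In CD8 cells WT controls had 54.7 to 178 CPM and the other groups medians of 3.70 to 4.72 CPM, with single libraries up to 161. With this sum as a covariate, an alternative added after the data were seen, 22 members rose in CD4 (12.8% of genes passed in either direction) and 27 in CD8 cells (15.9%) with lymphoma. Only the averages over both genotypes were refitted in this way. The comparisons of KO with WT controls, with the Kif23 call, and of lymphoma with control within WT mice were not. In those comparisons the part of Y-linked RNA was not tested.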

How the data were processed

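RNA of CD4 and CD8 T lymphocytes was read as 3′ tags (Lexogen QuantSeq FWD kit, per the labels). The authors deposited 1 table of estimated counts per gene, all whole numbers in the genes used, with mouse gene symbols. Salmon 0.11.3 is named in the submitters' processing notes without its role, and the notes name the build GRCh38 although the samples are mouse. The sources used here do not give how tags were summed to genes or whether strand was used. Of 34113 genes, 2 held a letter in place of a number and were dropped. The members, roles and marker lists were chosen with earlier results of these data known.

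Groups were taken from the sample titles. CD4 and CD8 libraries were fitted apart, 12 in each fit, and CD8 minus CD4 comparisons used all 24 libraries without a term for the mouse pool. Genes were kept with filterByExpr (minimum count 10, total 15), which left 12808, 12650 and 13232 genes. Counts were scaled by the trimmed mean of M values and tested with edgeR 4.0.16 in R 4.3.3 (robust quasi-likelihood F-test, Benjamini-Hochberg adjustment over all genes tested, threshold 0.05), with 8, 8 and 16 residual degrees of freedom. Fold changes are log2 with their SE after ±. CPM are counts rescaled to a common library total. The code was tested on simulated counts with known changes.

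The alternatives were DESeq2 1.42.0, DESeq2 size factors in edgeR, no filter, a block for replicate number or for mouse pool, the share of B identifiers as a covariate and each library left out. Y-linked RNA as a covariate was added after the data were seen, for the lymphoma averages only. Values in every library are given for the 2 members of each role class with the highest mean CPM over all libraries, and members that passed are named. From each other list, examples are among those with the smallest p. Positions are from GENCODE M21 (GRCm38), and promoter windows from RefSeq (GRCm38.p6). A gene with several windows counted as holding a motif if any window held it. No list was tested as a set.

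Same-numbered CD4 and CD8 libraries come from the same mice per the labels, and their residuals correlated at -0.03 to 0.56 over 12 pairs, 10 of them above 0.1. Same-numbered libraries of different mice share only a number, with correlations from -0.23 to 0.34 over 36 pairs.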

Additional observations from a re-analysis of the deposited data

How the results depend on the processing

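Over the 18 comparisons and their alternatives, the count of members that passed moved in 46 cases. It stayed the same or close in 184, many of them at 0. The fold changes of the 34 members with lymphoma kept their sign in every alternative for both averages. They also did so for WT mice in CD4 and for KO mice in CD8 cells. DESeq2 gave the larger counts, 21 and 20 in the WT lymphoma comparisons of CD4 and CD8 cells, 30 in the CD4 average, 27 in CD8 KO lymphoma, 7 and 3 for KO minus WT controls in CD4 and CD8 cells, and 3 for KO minus WT in CD8 lymphoma. DESeq2 size factors left 0 in WT controls, CD8 minus CD4. Without a filter on low counts the CD4 average gave 7 (3.98% of genes in either direction). With the share of B identifiers the CD4 average gave 0 (2.4% of genes), CD8 KO lymphoma 5 (3.5%) and CD8 KO minus WT controls 0 (0.332%). With Y-linked RNA the CD4 average gave 22 (12.8%). Leaving out 1 library at a time gave 2 to 29 members in the CD4 average, 22 to 31 in the CD8 average, 0 to 4 in CD4 WT lymphoma, 0 to 5 in CD4 KO lymphoma, 0 to 1 in CD8 WT lymphoma, 0 to 26 in CD8 KO lymphoma, 0 to 14 in CD8 lymphoma KO minus WT, 0 in CD8 KO minus WT controls and 0 to 1 in WT controls, CD8 minus CD4. Over all genes, 2.87 to 15.9% passed in either direction in these fits of the CD4 average and 7.96 to 24.2% in those of the CD8 average. In CD8 KO lymphoma the share was 0 to 14.4%. The cause of these shifts was not tested, beyond the fewer libraries in a fit.

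With the replicate number as a block the CD4 average gave 9 members (6.24% of genes in either direction) and the CD8 average 27 (14.2%). CD8 KO lymphoma gave 0 (0.198%) and CD8 KO minus WT controls 0 (0.387%). In CD4 lymphoma, KO minus WT, all 3 same-numbered pairs correlated above 0.1, and the replicate block left the count at 0. With the mouse pool as a replicate block, where pairing is by label, 1 member passed in WT lymphoma and 5 in KO controls for CD8 minus CD4, and no other of these counts changed. Groups of 3 pools limit what can be called: 1 count is worth 0.0981 to 0.155 CPM, and the levels of Aurkb in WT controls rest on 3 to 10 counts a library in CD4 and 2 to 7 in CD8 cells, which limits its fold change. The same limit holds in WT controls for Kif4 (1 to 8 counts in CD4, 2 to 6 in CD8), Bub1 (5 to 10 and 3 to 8) and Nuf2 (4 to 8 and 2 to 11). It also holds for Cdkn1a, at 0.462 to 0.927 CPM in CD4 WT controls.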
